A study of Agaricus bisporus with 12 samples.

Results

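The 4 genes described here are laccase-1 (lcc1, GeneID.146228 in the files), laccase-2 (lcc2, GeneID.139148), the gene annotated as the laccase-2 small subunit (GeneID.149407) and laccase-3 (lcc3, GeneID.184981) of Agaricus bisporus, the button mushroom. They were taken by gene number, but with earlier results of these data known. They are 4 of the 9502 genes with a read in any library. Another 8 genes are described as laccases in the files and are mentioned only for comparison. The RNA came from compost colonised by strain A15, a commercial heterokaryon. It was sampled at 6 stages, with 2 libraries each. The first, called spawning, is compost after 16 days of colonisation at 25 °C. Pinning came next, then the first flush of mushrooms and the time after it, and finally the second flush and the time after that. All groups share the strain, the wheat straw and manure compost, the 16 days of colonisation at 25 °C and the supplier. The stages after spawning also share a casing layer of peat and lime, and the labels do not say if both libraries of one stage stem from different beds. The p-values therefore reflect only how far these samples spread, and that spread may be technical.

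Laccases are copper enzymes that take single electrons from phenols and pass them to oxygen, which becomes water. White-rot and litter fungi secrete them where lignin and humic matter are attacked, and in the button mushroom they are known as major secreted proteins of mycelium growing through compost. Heterodimeric laccases, in which a small chain accompanies the catalytic one, are known from the oyster mushroom Pleurotus ostreatus.

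Each library held 7.27 to 9.34 M reads placed uniquely in genes. Levels are given as RPKM, the reads scaled to gene length and to the total of those reads, so they are shares of the fungal messages. In such a mixed sample, fewer expressing hyphae and less RNA in each hypha cannot be told apart. Replicates differed most at the after first flush stage, where 520 genes were more than 2-fold apart (174 to 356 genes elsewhere). First flush libraries carry a different letter in the submitters' library codes, and any batch that this letter marks cannot be told apart from that stage. A gene was called at an adjusted p under 0.05 in edgeR's quasi-likelihood test (Benjamini-Hochberg over all 8814 genes tested). All 4 laccase genes were among the tested ones, and all 4 were called for a difference between any of the 6 stages, as were 85.6% of genes.

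The 4 genes shared an order of stages. Both spawning libraries were above all 10 later ones for each of them, which held for 13.0% of tested genes. For each of them the first flush libraries were then above the 8 remaining ones. That full order, described after the values were seen, was met by 1.82% of tested genes. Together the 4 genes took 2.96% and 3.11% of all reads in the spawning libraries and 0.453% and 0.483% in the first flush libraries. At the other stages they took between 0.0169% (after first flush replicate 1) and 0.148% (pinning replicate 1).

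**Figure D1:**
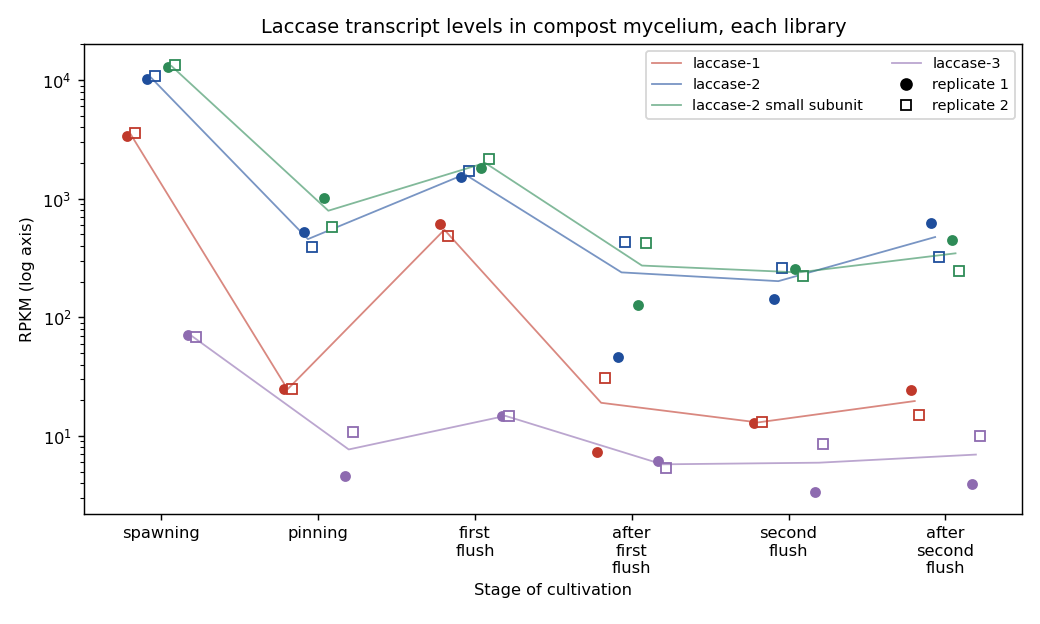
RPKM on a log axis of the 4 genes in each of the 12 libraries by stage of cultivation (filled circles, replicate 1; open squares, replicate 2; lines join the stage means). Spawning is highest and first flush second for every gene, and the after first flush libraries of laccase-2 lie 9.44-fold apart.

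Laccase-2, the catalytic chain with the most reads of the 4, stood at 10219 and 10737 RPKM in the spawning libraries and at 523 and 391 RPKM at pinning. The first flush libraries had 1520 and 1700 RPKM, and those after first flush 45.9 and 433 RPKM. Second flush libraries had 143 and 261 RPKM and those after second flush 626 and 325 RPKM. By RPKM it ranked 6 among all genes in both spawning libraries, 41 and 39 at first flush, and between 201 and 3210 elsewhere. Below first flush no neighbouring stages were separated, since the libraries of after second flush, pinning, after first flush and second flush overlapped in turn.

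The small subunit gene was the most abundant of the 4 per length at spawning, with 12945 and 13334 RPKM, and ranked 4 in both libraries. Its pinning libraries had 1010 and 576 RPKM and its first flush libraries 1832 and 2183 RPKM. After that flush it had 127 and 420 RPKM. The second flush libraries had 256 and 223 RPKM, and those after it 446 and 247 RPKM. Its pinning libraries were above those after second flush, and the remaining stages overlapped.

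Laccase-1 had 3368 and 3601 RPKM at spawning and 24.8 and 24.7 RPKM at pinning. Its first flush libraries had 609 and 486 RPKM, and those after that flush 7.38 and 30.7 RPKM. The second flush libraries had 12.9 and 13.1 RPKM, and those after it 24.5 and 14.9 RPKM. It moved from rank 14 and 13 at spawning to rank 4266 and 4262 at pinning and back to rank 180 and 262 at first flush. Both pinning libraries were just above those of after second flush, but after first flush replicate 2 (30.7 RPKM) was above both pinning libraries. The lowest 3 stages by mean overlapped.

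Laccase-3 was far lower throughout. It had 71.4 and 67.7 RPKM at spawning, 4.63 and 10.8 RPKM at pinning, 14.9 and 14.7 RPKM at first flush and 6.17 and 5.36 RPKM after first flush. Second flush libraries had 3.34 and 8.56 RPKM and after second flush libraries 3.90 and 10.03 RPKM. Below first flush its 4 remaining stages could not be ordered, because their libraries overlapped.

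Between spawning and pinning, when primordia form and the casing is in place, all 4 genes fell, against 25.2% of tested genes called lower in that step. Laccase-1 fell by 7.27 on the log2 scale (SE 0.65, 154-fold, edgeR adjusted p = 4.7e-05). Laccase-2 fell by 4.65 (SE 1.01, 25.1-fold, edgeR adjusted p = 0.0065), the small subunit gene by 4.18 (SE 0.59, 18.2-fold, edgeR adjusted p = 0.00058) and laccase-3 by 3.31 (SE 0.56, 9.94-fold, edgeR adjusted p = 0.0013). The libraries of both stages were apart for every one of these genes, and each of the 4 calls held in every alternative run.

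From pinning to first flush laccase-1 rose by 4.24 on the log2 scale (SE 0.57, 18.9-fold, edgeR adjusted p = 0.00057), 1 gene of the 4, against 25.1% of tested genes called higher. Laccase-2 (log2 change 1.59, SE 0.89, edgeR adjusted p = 0.18) and the small subunit gene (1.12, SE 0.53, edgeR adjusted p = 0.11) were higher in both libraries but not called. Their spread was estimated over all stages, including the uneven after first flush pair. With both after first flush libraries left out, an alternative added after the data were seen, the same log2 changes were called (edgeR adjusted p = 0.0092 for laccase-2 and 0.015 for the small subunit gene). Laccase-3 stood at 0.72 (SE 0.55, edgeR adjusted p = 0.31) and was not called in either fit. With 1 library left out it ran from 0.24 to 1.44, again with no call.

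After first flush all 4 genes had lower values than at first flush in both libraries, and 3 of the 4 were called lower, against 26.0% of tested genes. The fall was 4.87 on the log2 scale for laccase-1 (SE 0.59, edgeR adjusted p = 0.00028) and 2.90 for the small subunit gene (SE 0.56, edgeR adjusted p = 0.0032). For laccase-2 the change was −2.77 (SE 0.93, edgeR adjusted p = 0.040), a call that was lost when only these stages were fitted (adjusted p = 0.18) or without either first flush library (0.088 and 0.099). Without after first flush replicate 2 it was −5.17 (edgeR adjusted p = 0.00034). Laccase-3 had a log2 change of −1.38 (SE 0.57, edgeR adjusted p = 0.072).

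**Figure D2:**
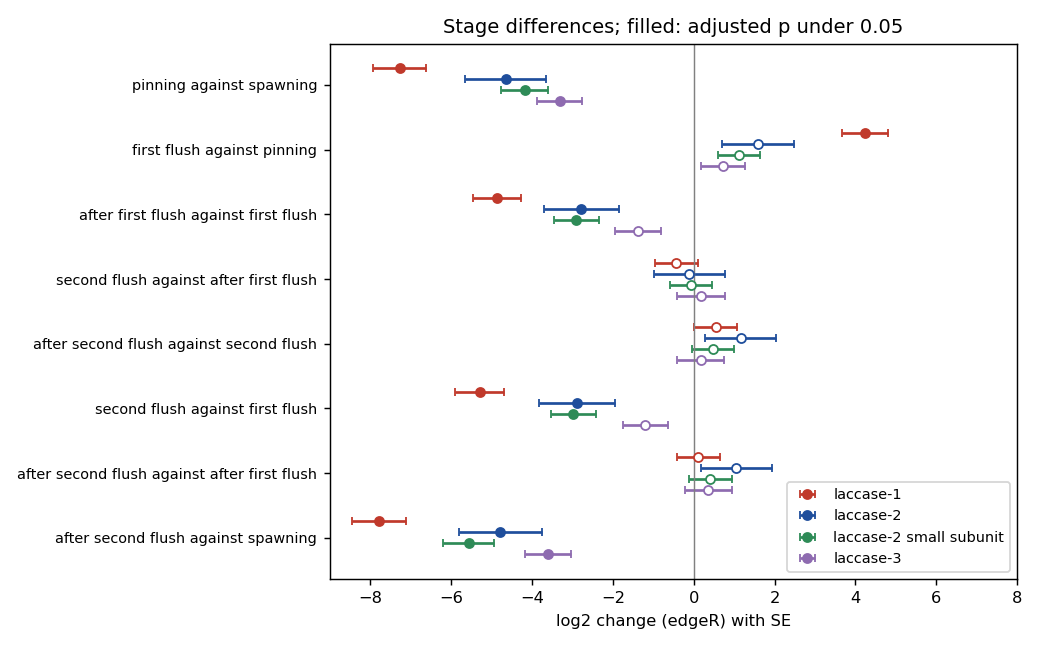
Log2 change with its standard error in edgeR for the 4 genes in 8 comparisons of stages (filled points, adjusted p under 0.05; open points, not called). The 4 genes lie left of 0 at pinning against spawning, from −7.27 for laccase-1 to −3.31 for laccase-3, and none is called in the comparisons among the stages later than first flush.

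At second flush the libraries of all 4 genes were below those of first flush, and the difference was called for 3 of them. Against first flush, laccase-1 was lower by a log2 change of −5.29 (SE 0.60, edgeR adjusted p = 0.00024), the small subunit gene by −2.97 (SE 0.56, edgeR adjusted p = 0.0034) and laccase-2 by −2.88 (SE 0.93, edgeR adjusted p = 0.040), so 3 of the 4 genes were called, against 22.7% of tested genes called lower. The laccase-2 call was lost without any 1 of the 4 libraries (adjusted p 0.088 to 0.18), and was held without the after first flush pair (adjusted p = 0.00068). For laccase-3 the log2 change was −1.20 (SE 0.56, edgeR adjusted p = 0.12).

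Against after first flush, none of the 4 genes was called at second flush, where edgeR called 22.3% of tested genes in either direction. The log2 changes were −0.43 (SE 0.53) for laccase-1, −0.11 (SE 0.87) for laccase-2, −0.07 (SE 0.53) for the small subunit gene and 0.19 (SE 0.60) for laccase-3. The smallest unadjusted p of the 4 was 0.45 in edgeR. The laccase-1 value rests on which after first flush library is used. Without replicate 1 it was −1.11 (edgeR adjusted p = 0.0089), and without replicate 2 it was 0.95 (edgeR adjusted p = 0.023). Laccase-2 reached 2.28 (edgeR adjusted p = 0.020) without replicate 2.

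From second flush to after second flush none of the 4 was called either, against 8.18% of tested genes. The log2 changes ran from 0.18 (SE 0.58) for laccase-3 to 1.16 (SE 0.88) for laccase-2. With 1 library left out they ran from 0.19 to 0.82 for laccase-1, 0.66 to 1.73 for laccase-2, 0.04 to 0.81 for the small subunit gene and −0.71 to 1.07 for laccase-3, and none was called. Between the after-flush stages, where 16.3% of tested genes were called, the changes were 0.12 (SE 0.53) for laccase-1, 1.06 (SE 0.88) for laccase-2, 0.41 (SE 0.52) for the small subunit gene and 0.37 (SE 0.59) for laccase-3, with no call. Without after first flush replicate 2 the first 3 genes were called as higher after second flush, at log2 changes of 1.49, 3.45 and 1.53 (edgeR adjusted p = 0.0017, 0.0041 and 0.028). A missing call does not show that levels were alike, since an SE of 0.88 leaves room for several-fold changes of laccase-2.

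Over the whole cultivation, from spawning to after second flush, all 4 genes fell, against 27.6% of tested genes called lower. The log2 changes were −7.78 for laccase-1 (SE 0.67, edgeR adjusted p = 2.9e-05), −5.56 for the small subunit gene (SE 0.63, edgeR adjusted p = 0.00015), −4.78 for laccase-2 (SE 1.02, edgeR adjusted p = 0.0053) and −3.61 for laccase-3 (SE 0.56, edgeR adjusted p = 0.00077).

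The step out of a flush was compared between the flushes in an interaction test. For all 4 genes the change from second flush to after second flush was more positive than that from first flush to after first flush. The difference was called for 3 of them, and 39.4% of tested genes were called in this test in either direction. Of the 8814 tested genes, 1706 were called with a positive difference, like these 3, and 1765 with a negative one. The difference was 5.41 on the log2 scale for laccase-1 (SE 0.77, edgeR adjusted p = 0.0011), 3.38 for the small subunit gene (SE 0.76, edgeR adjusted p = 0.0094) and 3.94 for laccase-2 (SE 1.27, edgeR adjusted p = 0.045). For laccase-3 it was 1.56 (SE 0.81, edgeR adjusted p = 0.16). The laccase-2 call was lost when any 1 library of first flush, second flush or after second flush was left out (adjusted p 0.065 to 0.13).

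Laccase-1 and laccase-2 did not keep a constant ratio. Their RPKM ratio within a library does not depend on the scaling between libraries. It was 0.330 and 0.335 in the spawning libraries, 0.0474 and 0.0633 in those of pinning and 0.401 and 0.286 in those of first flush. After that flush it was 0.161 and 0.0709. The second flush libraries had ratios of 0.0907 and 0.0501, and those after it 0.0391 and 0.0459. The spawning and first flush libraries thus had the highest ratios, and no other library overlapped them. An exact permutation test over all 10395 ways to pair the 12 libraries gave p = 0.0067 (one-sided, adjusted p = 0.020 over the 3 ratios tested). Without the after first flush pair the adjusted exact p was 0.0508 over 10 libraries and 945 pairings, so the call was not kept. No other stage was left out in this way, and fewer pairings alone weaken the test. Whether the call rests on that stage was therefore not tested.

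The small subunit gene had 1.27 and 1.24 times the RPKM of laccase-2 at spawning and 1.21 and 1.28 times at first flush. At pinning the ratio was 1.93 and 1.47, and after second flush 0.713 and 0.761. The stages between them were uneven, with ratios of 2.76 and 0.970 after first flush, while second flush libraries had 1.80 and 0.852. The exact permutation test found no difference between stages beyond that between the libraries of a stage (p = 0.41, adjusted p = 0.43). Laccase-3 was at between 0.00623 and 0.135 of the laccase-2 RPKM, the highest in after first flush replicate 1, with no difference between stages found by the exact permutation test (p = 0.43, adjusted p = 0.43).

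**Figure D3:**
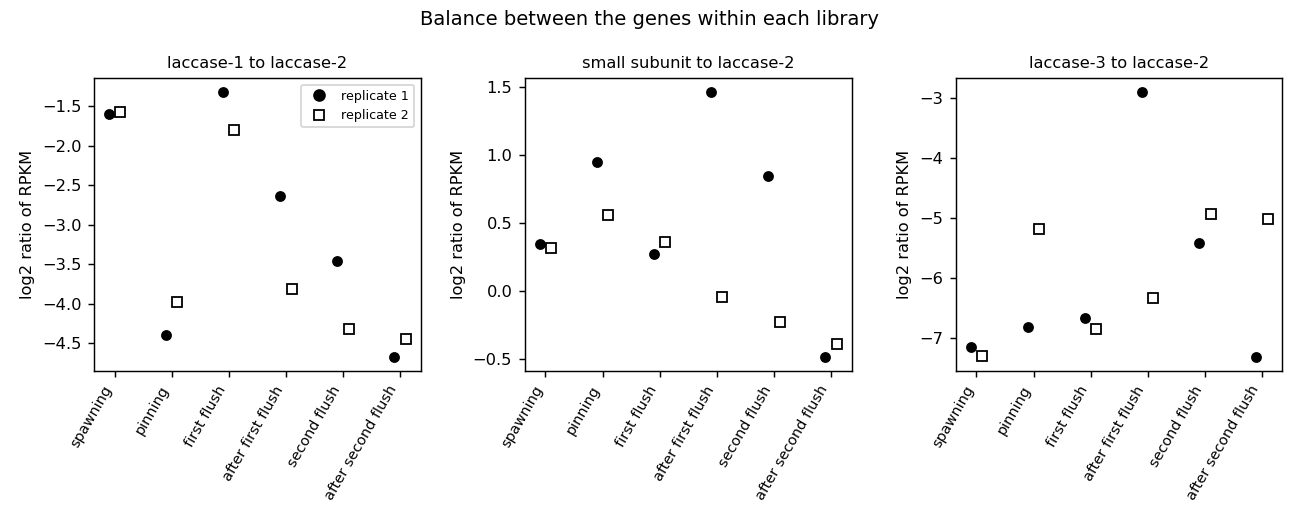
Log2 ratio of the RPKM of laccase-1, the small subunit gene and laccase-3 to that of laccase-2 in each library, by stage (filled circles, replicate 1; open squares, replicate 2; each panel has its own axis). The laccase-1 ratio is highest at spawning and first flush, and the after first flush libraries lie apart in all 3 panels.

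After first flush replicate 1 was the lowest of all 12 libraries for laccase-1, laccase-2 and the small subunit gene. The gap to replicate 2 was 9.44-fold for laccase-2, 4.16-fold for laccase-1 and 3.32-fold for the small subunit gene. For laccase-3 the pair was 1.15-fold apart, with replicate 1 the higher. Laccase-3 was instead uneven at pinning (2.32-fold), second flush (2.56-fold) and after second flush (2.57-fold), where the other genes were at most 1.93-fold apart. What set these libraries apart was not tested.

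The files also give the share of each gene's length that reads covered. Laccase-2 (1669 bases in the files) was covered over 98.6% to 99.2% and the small subunit gene (555 bases) over 99.3% to 99.8% in every library. Laccase-1 (1563 bases) was covered over at least 98.9% at spawning and first flush, but its lower levels rested on partly covered messages. After second flush replicate 2 had 215 laccase-1 reads over 73.1% of the gene, while 155 laccase-3 reads covered 96.7% of that gene (1676 bases). Second flush replicate 2 had 191 laccase-1 reads over 77.4%, against 134 laccase-3 reads over 93.9%. After first flush replicate 1 had 97 laccase-1 reads over 72.6%, against 87 laccase-3 reads over 87.4%. In the other replicate of each of these stages laccase-1 had the higher coverage. It was 81.8% against 71.3% in after second flush replicate 1 and 76.1% against 71.6% in second flush replicate 1. In after first flush replicate 2 it was 92.6% against 77.8%, and both pinning libraries also had the higher coverage for laccase-1. Laccase-1 had more reads than laccase-3 in all 12 libraries, yet the lower coverage in 5 of them, the spawning pair among these at over 99% for both genes. The counts are of uniquely placed reads, and whether some of the laccase-1 reads at its low stages come from a related gene was not tested.

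**Figure D4:**
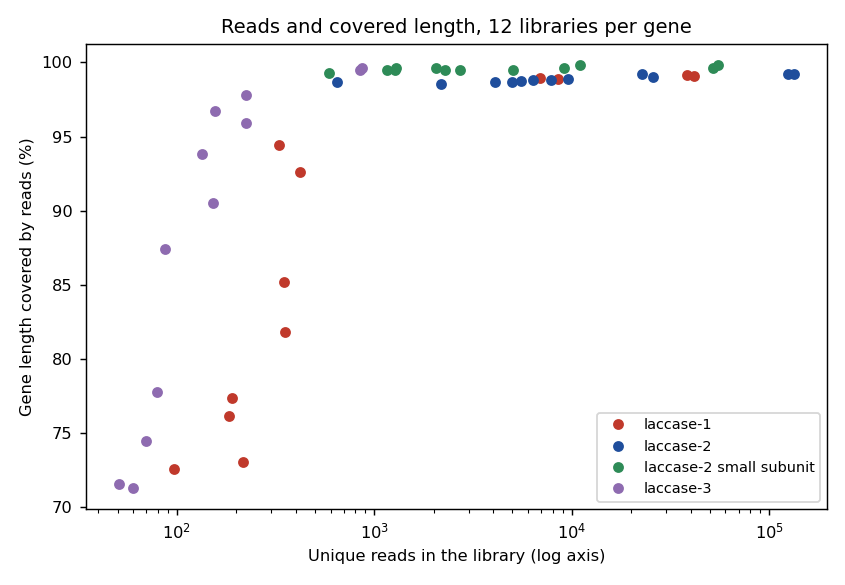
Share of the gene's length covered by reads against the number of unique reads on a log axis, 1 point per library and gene. Laccase-2 and the small subunit gene stay above 98%. In after second flush replicate 2, laccase-1 with 215 reads covers 73.1% where laccase-3 with 155 reads covers 96.7%. In replicate 1 of that stage laccase-1 covers 81.8% and laccase-3 71.3%.

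In the gene order of the RefSeq annotation of strain H97 (assembly Agabi_varbisH97_2) laccase-1 and laccase-2 are next to each other, and laccase-3 is elsewhere. Only this order was used, and scaffold, distance and strand were not compared. The nearest protein-coding gene on the laccase-1 side, across a transfer RNA gene, is annotated as an alpha-amylase (gene 211295), an enzyme class that splits starch. This neighbour was looked at after the laccase values were known. Its spawning libraries had 19.4 and 17.8 RPKM, its pinning libraries 0.778 and 0.910 RPKM and its first flush libraries 36.8 and 24.4 RPKM. After that flush it had 1.08 and 2.39 RPKM. The second flush libraries had 1.39 and 1.73 RPKM, and those after it 9.10 and 7.54 RPKM. At pinning it fell by 4.58 on the log2 scale (SE 0.34, edgeR adjusted p = 2e-06), rose at first flush by 4.94 (SE 0.34, edgeR adjusted p = 1.7e-06) and then fell by 4.15 (SE 0.30, edgeR adjusted p = 1.8e-06), each time in the direction in which laccase-1 was called. At first flush the amylase mean was above that of spawning (30.6 against 18.6 RPKM), unlike that of laccase-1 (548 against 3485 RPKM). It then rose after second flush (log2 change 2.36, SE 0.32, edgeR adjusted p = 0.0016), where laccase-1 was not called. The gene on the other side of the pair (122283, without a description) had 14.5 ± 1.1 RPKM at spawning and 15.0 ± 1.1 at pinning (SD, n = 2, not called), and rose to 55.3 ± 14 RPKM at first flush (log2 change 1.65, SE 0.19, edgeR adjusted p = 5.6e-05). The next gene beyond the amylase (211293, without a description) moved the other way at pinning, from 23.3 ± 0.17 to 58.0 ± 6.9 RPKM (1.19, SE 0.21, edgeR adjusted p = 0.00064).

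**Figure D5:**
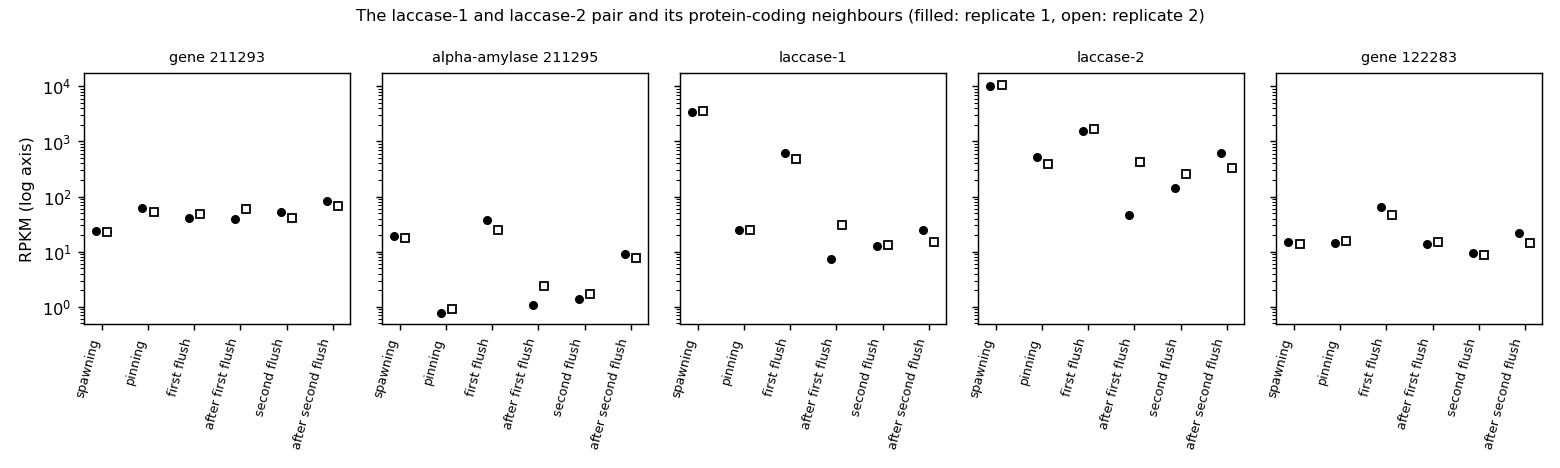
RPKM on a shared log axis in each library for laccase-1, laccase-2 and the protein-coding genes on either side of the pair in the H97 annotation (filled circles, replicate 1; open squares, replicate 2). The amylase falls at pinning and at first flush stands above its spawning level, while laccase-1 stays below its own, and gene 122283 rises at first flush from means of 14.5 and 15.0 RPKM at spawning and pinning.

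The 5 genes with the pattern most like each laccase were taken by the Pearson correlation of log2 CPM over the 12 libraries, among 6420 genes with at least 20 CPM in a stage. These correlations share libraries and depth and are descriptions. Among themselves, laccase-2 and the small subunit gene were closest (r = 0.97), followed by laccase-1 with the small subunit gene (0.97) and laccase-1 with laccase-2 (0.95). Laccase-3 stood at r = 0.86 to 0.89 to the others, and none of them was among its 5 nearest genes.

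Nearest to laccase-1 were a gene annotated as chitin deacetylase (180621, r = 0.98), gene 138064 (0.98), gene 201274 (0.98) and a gene annotated as the sterol 14-demethylase of ergosterol synthesis (183657, 0.97), followed by the small subunit gene (0.97). Gene 138064, without a description, had 248 ± 57 RPKM at spawning, 0.923 ± 0.11 at pinning and 40.1 ± 22 at first flush, and between 0.486 and 1.37 RPKM on average later. Nearest to laccase-2 were gene 180451 (r = 0.98), the small subunit gene, a glutathione S-transferase (202658, 0.97), a saccharopepsin-like aspartic protease (192428, 0.96) and gene 217231 (0.96). The protease had 797 ± 36 RPKM at spawning, 72.4 ± 1.7 at pinning and 143 ± 16 at first flush.

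Gene 201274, without a description, was the nearest to the small subunit gene (r = 0.98), with 323 ± 33 RPKM at spawning, 35.6 ± 8.4 at pinning and 97.8 ± 16 at first flush. In the H97 gene order this gene is next to a locus with the symbol sslcc2, the small subunit of laccase-2, and their listed positions overlap. Whether they share a scaffold was not checked. That locus carries another number than the small subunit gene of the files. The latter had no match by number in that annotation, so whether the loci are the same was not settled. Strandedness of the counting is not stated, and reads of overlapping genes may not be separable. Also near the small subunit gene were laccase-2, the protease 192428, laccase-1 and gene 138136 (r = 0.96 to 0.97). Nearest to laccase-3 were an aldehyde dehydrogenase (200309, r = 0.98), genes 187790 and 145634, a serine palmitoyltransferase (209409, 0.96) and a heme oxygenase (73107, 0.96). The heme oxygenase had 199 ± 5.9 RPKM at spawning, 56.2 ± 6.3 at pinning and 90.3 ± 34 at first flush.

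Laccases 1, 2 and 3 supplied 98.7% and 98.8% of the reads of all genes described as laccases at spawning, leaving out the small subunit gene. The pinning libraries had shares of 79.2% and 69.7%, and the first flush libraries 78.3% and 80.3%. After that flush the shares were 22.2% and 75.2%, where replicate 1 stood apart again. Second flush libraries had 49.4% and 72.9%, and those after it 82.8% and 72.0%. Over all tested genes 29.3% were called higher and 25.2% lower at pinning, 25.1% and 23.6% at first flush, and 26.1% and 26.0% after it. Of the 8 other laccases, 3 fell and 1 rose at pinning, 4 rose and none fell at first flush, and 5 fell and none rose after it, with list medians of −0.37, 1.06 and −1.19 on the log2 scale against 0.05, 0.03 and −0.01 over all tested genes. The most abundant of them, laccase-9 (gene 194714), fell from 125 ± 1.8 RPKM at spawning to 80.2 ± 17 at pinning (SD, n = 2, edgeR adjusted p = 0.0015), and unlike the 4 genes it was highest at first flush, with 256 ± 8.3 RPKM. The largest rise and the largest fall were those of laccase-5 (gene 135711), from 4.52 ± 1.3 to 90.8 ± 24 RPKM at first flush (log2 change 4.10, SE 0.39, edgeR adjusted p = 4.5e-05) and back to 5.88 ± 1.7 RPKM after it (−3.97, SE 0.38, edgeR adjusted p = 3.5e-05).

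Manganese peroxidase (gene 221245), a heme enzyme that attacks lignin through oxidised manganese, was the single member of the peroxidase list. This list and the others were matched by description, which 4585 of the 9502 genes had, so they may be incomplete. It had 976 and 960 RPKM at spawning and 153 and 144 at pinning, a fall like that of the laccases in direction (log2 change −2.84, SE 0.29, edgeR adjusted p = 2.5e-05). At first flush it had 27.2 and 38.3 RPKM, where laccase-1 rose and the peroxidase fell further (−2.40, SE 0.29, edgeR adjusted p = 0.00012). It rose at second flush to 86.3 and 124 RPKM (1.67, SE 0.28, edgeR adjusted p = 0.0042), where no laccase of the 4 was called.

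Laccase folding needs copper, which fungal cells take up with membrane transporters, hand on by chaperones and load in the Golgi through a copper ATPase. Of 9 genes listed for copper uptake and delivery, 8 were tested. Of all tested genes 25.2% were called lower at pinning, 23.6% at first flush and 26.0% after it, and 29.3%, 25.1% and 26.1% higher. At pinning 3 fell and 1 rose (list median −0.24), at first flush 2 rose and 3 fell (−0.21), and after first flush 4 rose and 1 fell (0.37). The annotated copper ATPase (gene 118756) moved like laccase-1 in sign but in a far narrower range. It had 84.8 and 85.2 RPKM at spawning, then 48.6 and 50.5 in the pinning libraries and 99.4 and 80.9 in those of first flush, which was a fall of 0.91 (SE 0.13, edgeR adjusted p = 0.00014) and then a rise of 0.64 (SE 0.13, edgeR adjusted p = 0.0020) on the log2 scale. It then fell by 0.62 after first flush (SE 0.13, edgeR adjusted p = 0.0021). The copper chaperone (gene 199351) stood at 105 ± 20, 217 ± 13 and 108 ± 6.2 RPKM at spawning, pinning and first flush. After first flush it had 239 ± 49 RPKM. In each of these steps it moved opposite to laccase-1 in sign. Its log2 change was 0.93 at pinning (SE 0.18, edgeR adjusted p = 0.0010) and −1.23 at first flush (SE 0.18, edgeR adjusted p = 0.00022). After first flush the change was 1.12 (SE 0.18, edgeR adjusted p = 0.00034). The most abundant member was a gene described as a metallothionein expression activator (189981), between 232 and 365 RPKM in the 12 libraries. Genes so described are in the list by the word metallothionein only, not by a named role in copper uptake or delivery. Another gene with that description (79223) had the largest fall of the list, −2.38 at first flush (SE 0.45, edgeR adjusted p = 0.0030), and its largest rise, 1.58 after it (SE 0.44, edgeR adjusted p = 0.017).

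Of 25 genes listed for aromatic and quinone compounds, the kind of product laccases release, 8 fell and 5 rose at pinning (list median −0.04), 7 fell and 4 rose at first flush (−0.27), and 4 fell and 7 rose after it (0.39). Over all tested genes the shares called lower in these steps were 25.2%, 23.6% and 26.0%, and those called higher 29.3%, 25.1% and 26.1%. The largest fall was that of the gene annotated as 2,3-dihydroxybenzoate decarboxylase (210050), from 117 and 106 RPKM at spawning to 0.980 and 0.868 RPKM at pinning. It stayed between 0.328 and 2.09 RPKM in all later libraries, including first flush. The most abundant member, a gene annotated as NADPH:quinone reductase (192642), was lowest at first flush (182 ± 10 RPKM) and highest at second flush (551 ± 2.7 RPKM). The largest rise of the list, after first flush, was in a gene annotated as a hexaprenyldihydroxybenzoate methyltransferase (141408), an enzyme of ubiquinone synthesis that is in the list by its name only. Its libraries there were at 127 and 19.2 RPKM, against 9.78 ± 1.1 RPKM at first flush.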

How the data were processed

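RNA was sequenced from 12 compost samples, 2 at each of 6 stages. The authors deposited, per gene and library, unique read counts, the percent of the gene's length covered, and RPKM, which per the file headers divides the count by gene length and the library's total. The sources used here give no aligner, annotation version, genome build or strandedness. A gene missing from a library's file was taken as 0 reads. Gene numbers were matched to RefSeq locus tags of Agabi_varbisH97_2 (9440 of 9502 matched, 99.3%) for neighbour order. Whether the counts used that build is not stated, and no sequence was analysed here.

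Counts were fitted with edgeR 4.0.16 in R 4.3.3 (robust quasi-likelihood, TMM factors 0.834 to 1.11, filterByExpr with a minimum count of 10 and total of 15, 8814 genes, 6 residual degrees of freedom, Benjamini-Hochberg over all tested genes). All 12 libraries shared 1 estimate of spread. The SE of a log2 change was taken from the change and its F statistic. The ratios were tested by exact permutation. The code was tested on simulated data. Alternatives were DESeq2 1.42.0, its size factors in edgeR, limma 3.58.1 on log2(RPKM + 1), no filter, only the compared stages, a replicate block and leaving out each library. Whether replicate numbers pair libraries was checked: 1 of 15 stage pairs had a correlation of deviations over 0.1, so they were not treated as pairs.

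The members and lists were chosen with earlier results of these data known. Besides the 4 members, the genes named are the 5 most correlated with each member, and from each list its most abundant gene and its called genes with the largest rise and fall over the 5 consecutive steps. Neighbours, the copper ATPase and the copper chaperone were named after their values were seen.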

Additional observations from a re-analysis of the deposited data

Results flagged for a closer look

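The step out of a flush differed between the flushes for 3 of the 4 genes by the interaction test in edgeR. It called 39.4% of all tested genes in either direction, 1706 of 8814 with a positive difference. The change after second flush exceeded that after first flush by 5.41 on the log2 scale for laccase-1, 3.94 for laccase-2 and 3.38 for the small subunit gene (edgeR adjusted p = 0.0011, 0.045 and 0.0094). The first flush libraries, which enter this difference, carry another code letter than the other 10.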

How the results depend on the processing

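Of 465 recomputed laccase values, 423 kept direction and call and 16 changed sign. Of those without a sign change, 14 lost a call and 12 gained one. Sign changes were counted as such even where a call was gained too. This was so for laccase-1 and laccase-2 at second flush against after first flush, without after first flush replicate 2. Among the gene counts, 101 of 114 stayed within 1.5 times. With only the compared stages fitted, laccase-2 was called at first flush (1.58, edgeR adjusted p = 2.1e-05) but not after it (−2.75, 0.18), laccase-3 was called after first flush (−1.36, 0.0027), and the counts of called genes fell to 46 at second flush against after first flush, 426 after second flush against second flush and 223 between the after-flush stages. With the replicate block, laccase-3 was called after first flush (−1.38, 0.034) and at second against first flush (−1.29, 0.049). There laccase-2 at second flush against after first flush had a log2 change of 0.0065, against −0.11 in the main fit. With limma on log2(RPKM + 1), the second flush changes against after first flush were 0.44 for laccase-2, 0.048 for the small subunit gene and −0.068 for laccase-3, none called, and laccase-3 at second against first flush was −1.29 (adjusted p = 0.048). Without both after first flush libraries, chosen after seeing the data, laccase-2 (1.59) and the small subunit gene (1.12) were called at first flush, 1194 genes were called after second flush against second flush, and the laccase-1 to laccase-2 ratio had an adjusted exact p of 0.0508.

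Leaving out 1 library at a time gave, after first flush, −5.17 to −1.92 for laccase-2. At second flush against after first flush it gave 809 to 2032 called genes, −1.11 to 0.95 for laccase-1, −0.96 to 2.28 for laccase-2, −0.69 to 1.05 for the small subunit gene and −0.72 to 0.74 for laccase-3. After second flush against second flush it gave 177 to 535 genes and −0.71 to 1.07 for laccase-3. At second against first flush it gave −3.45 to −2.48 for laccase-2 and −2.09 to −0.64 for laccase-3. Between the after-flush stages it gave 519 to 2186 genes, −0.57 to 1.49 for laccase-1, 0.20 to 3.45 for laccase-2, −0.21 to 1.53 for the small subunit gene and −0.52 to 0.92 for laccase-3. The laccase-2 interaction ran from 3.08 to 6.33. The cause was not tested. Limma on unscaled RPKM, which changes the tool, the genes tested and the scaling together, moved the median gene by 0.20 at first flush, 0.11 at pinning, −0.11 at second flush against after first flush and 0.27 from spawning to after second flush, and the share of called genes that were higher from 51.6% to 68.4% at first flush, from 50.8% to 30.8% at second flush against after first flush, from 53.6% to 71.2% from spawning to after second flush and from 53.7% to 39.4% between the after-flush stages. Low laccase-3 and laccase-1 counts, down to 51 and 97 reads, limit precision there.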
